A study of Homo sapiens with 12 samples.

Results

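Choline enters a cell through membrane transporters, can be oxidized to betaine in mitochondria, and is released again when choline phospholipids are broken down. The 10 genes described here encode steps of that traffic: the choline transporter-like genes SLC44A1, SLC44A2 and SLC44A4, the oxidation genes CHDH and ALDH7A1, the phospholipase D family genes PLD1 and PLD3, PNPLA6 and GPCPD1, which form and break glycerophosphocholine, and the sphingomyelin synthase gene SGMS2. They were taken by name as genes of choline transport, choline oxidation and choline phospholipid breakdown, and are 10 of the 54127 gene identifiers counted. The cells were C4-2, a castration-resistant derivative of the human prostate cancer line LNCaP, grown in RPMI medium with fetal bovine serum. They were transfected by reverse transfection with siRNA at 50 nM, either a pool targeting choline kinase alpha (siCHKA, 6 samples) or nontargeting siRNA (siNT, 6 samples). The siCHKA pool mixes several siRNAs whose sequences are not given in the sources used here, the duration of transfection is not given for these libraries, and the RNA protocol speaks of flow-sorted cells without naming the gate. The study speaks of biological triplicates for its knockdown gene lists and of 6 biological replicates for a plot of single genes. The labels number the samples without naming a culture for each, so the p-values measure the spread between these 6 samples of a group.

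Choline kinase alpha phosphorylates choline, the first step of the Kennedy pathway that builds phosphatidylcholine, and high choline kinase and phosphocholine are known features of prostate and other cancers. Choline that is not phosphorylated can be oxidized by choline dehydrogenase and an aldehyde dehydrogenase. Phospholipases and the glycerophosphocholine phosphodiesterase return choline, or choline-containing pieces, from the membrane to the free pool, and sphingomyelin synthases move the phosphocholine head group from phosphatidylcholine to ceramide. The comparison asks how the transcripts of these steps stood when CHKA was knocked down.

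After siCHKA, PLD1 rose about 2.03-fold, and PLD3 and SLC44A4 rose 1.51-fold and 1.501-fold. SGMS2 fell to 57.3% and GPCPD1 to 78.1% of the siNT level. CHDH and PNPLA6 rose to 121% and 112%, and SLC44A1 and SLC44A2 fell to 90.2% and 87.3%. ALDH7A1 had 9 reads in all siCHKA samples together and 2 in all siNT samples, did not pass the filter on low counts and was not tested. Of the 9 tested genes, 4 fell and 5 rose with an adjusted p-value under 0.05 (edgeR's quasi-likelihood test, Benjamini-Hochberg over all 14501 tested genes), against 30.1% of all tested genes lower, 32.1% higher and 62.2% called in either direction. With most tested genes called, a call by itself sets these genes little apart. At a change of at least 2-fold, 0 were lower and 1, PLD1, was higher, against 4.51% and 5.41% of all tested genes. Their median log2 fold change was 0.17, against 0.03 over all tested genes.

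**Figure D1:**
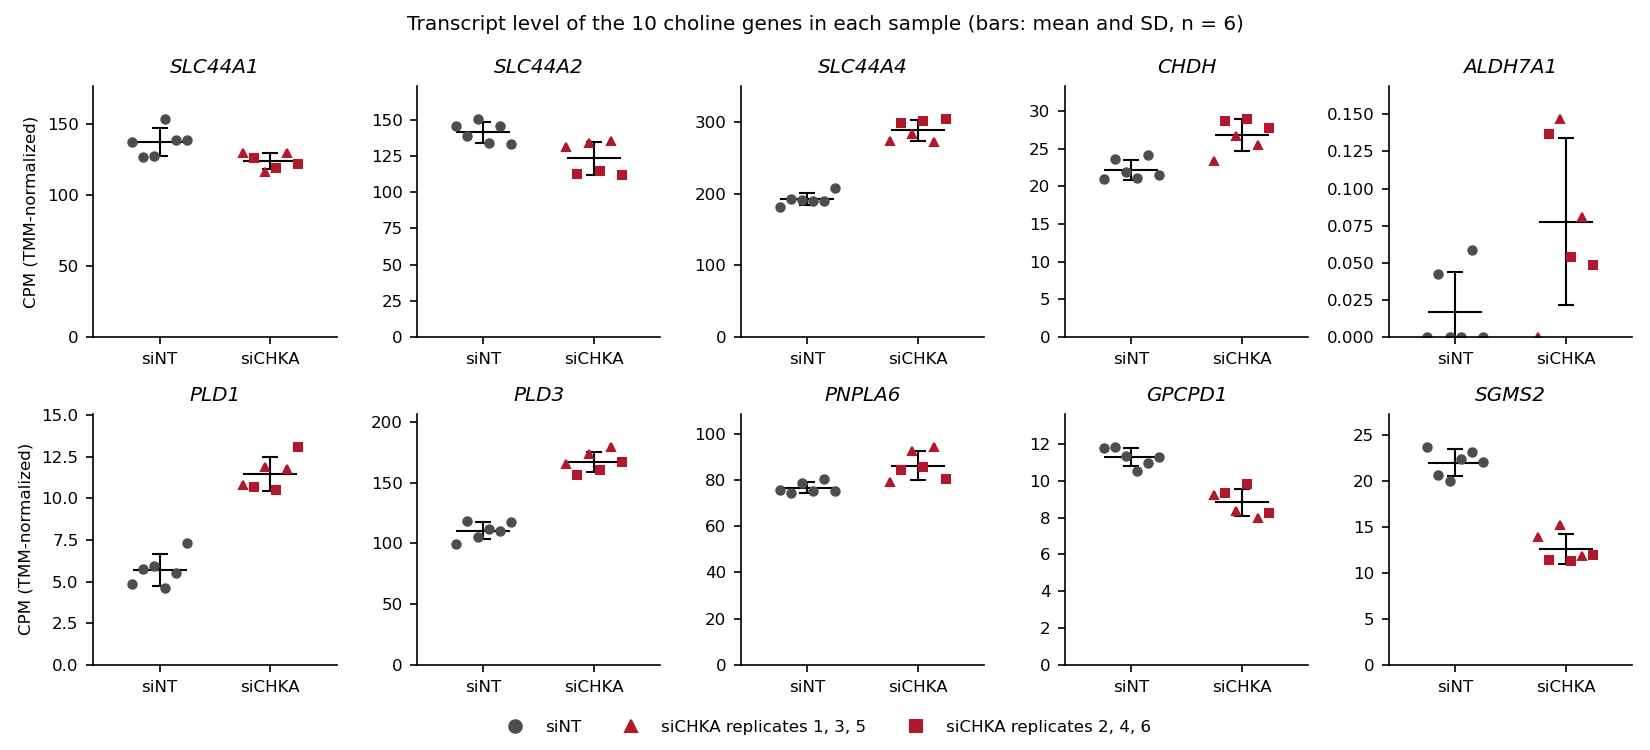
Transcript level of the 10 choline genes in each sample, in CPM (counts scaled to library size after TMM normalization), with siNT samples in grey and siCHKA samples in red (triangles for replicates 1, 3 and 5, squares for replicates 2, 4 and 6), each panel on its own axis from 0; horizontal bars are the mean and whiskers the SD of 6 samples. The groups are apart for SLC44A4, PLD1, PLD3, GPCPD1 and SGMS2 and overlap for the others, and every ALDH7A1 sample lies at or under 3 counts.

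The 3′ UTRs of the genes that fell were searched for the 7-base words GCCAGAT and TGCCCTT, which went with lower levels across genes in an earlier analysis of the same data. The words were chosen on these samples, so their counts here are no independent evidence. Among the 4 genes that fell, the canonical transcripts of SLC44A1, SLC44A2 and SGMS2 hold at least 1 word in the 3′ UTR and that of GPCPD1 holds none. Of the 9 other choline genes that fell (described below), 1, PLD2, holds a word, and of the 14 others that rose, 0 do. Among the other choline genes that were not called, SMPD3 holds GCCAGAT and LPCAT2 holds TGCCCTT. Neither fell, with log2 fold changes of 0.30 and 0.11, so a word also occurs in genes without a fall. None of the 5 genes that rose among those described here holds either word, and the untested ALDH7A1 holds TGCCCTT 1 time. The 3′ UTRs of the genes that rose are 202 bases long in PNPLA6, 312 in PLD3, 435 in SLC44A4, 2674 in PLD1 and 5442 in CHDH, and that of GPCPD1 is 3222 bases long, so the windows searched differ in length. Of the 12294 tested genes with a 3′ UTR, 9.52% hold GCCAGAT, 17.3% hold TGCCCTT and 23.6% hold either. Only the transcript strand was searched, and the words can share no more than 1 end base. The 4 matches in genes that fell are printed in GRCh38 on the plus strand with 10 bases on either side and the word in capitals, since SGMS2 had the largest fall and SLC44A1 and SLC44A2 the smallest:
SGMS2, chr4:107910693-107910719: aacaaagtatTGCCCTTtgactggttt
SLC44A1, chr9:105393620-105393646: aatactgtagTGCCCTTtcttcccatc
SLC44A1, chr9:105395620-105395646: aaatgtgataTGCCCTTttgtcacaga
SLC44A2, chr19:10643500-10643526: ctccccatgaGCCAGATcccaccagtt
The SGMS2 word lies at bases 150 to 156 of a 3′ UTR of 4494 bases, and the SLC44A1 words at bases 4574 to 4580 and 6574 to 6580 of one of 8290 bases. The SLC44A2 word lies at bases 125 to 131 of 1172. A match is a description of these letters, and whether any of them bears on the level of its gene was not tested.

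CHKA (ENSG00000110721), the targeted gene, was at 1.91 to 4.67 CPM in the siCHKA samples and at 36.7 to 43.3 CPM in the siNT samples, with 6.76% of the mean siNT level remaining. Reads counted on genes numbered 12158361 to 20670479 per sample after siCHKA and 10685184 to 24246055 after siNT, so that 3 counts were worth 0.124 to 0.281 CPM (a floor that covers counting error only). The siCHKA libraries fell into 2 sets that no label names: pairs among replicates 1, 3 and 5, or among 2, 4 and 6, had a chi-square per degree of freedom of 2.387 to 9.498, and pairs across the sets 12.48 to 24.88. The siNT pairs ranged from 2.512 to 30.94. All 9 luminal prostate markers were above 1 CPM, with a summed level of 4556.5 to 5712.8 CPM after siCHKA and 5540 to 7043.6 CPM after siNT. Of 3 basal markers, KRT5 was at most 0.0807 CPM and TP63 at most 0.0854 CPM. The basal sum was 1.57 to 2.10 CPM after siCHKA and 0.98 to 1.46 CPM after siNT. Nearly all of it was KRT14, which was higher after siCHKA without overlap (log2 fold change 0.58, edgeR adjusted p = 0.00247). The fibroblast sum of 5 genes, nearly all of it COL1A1, was 24.2 to 30.6 CPM after siCHKA and 11.7 to 19.1 CPM after siNT, with DCN at most 0.268 CPM and LUM at most 0.0455 CPM. The leukocyte sum of 4 genes was 4.20 to 6.21 CPM after siCHKA and 2.82 to 4.28 CPM after siNT, with CD3E at 0 in every sample. Most of it was CD68, which was higher after siCHKA without overlap (log2 fold change 0.68, edgeR adjusted p = 2.55e-04). The endothelial sum of 2 genes, nearly all of it VWF, was 1.13 to 1.86 CPM after siCHKA and 2.05 to 3.65 CPM after siNT. The part of these shifts, of the siCHKA sets and of depth in the changes below was not tested.

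The transcripts of the import step moved in different directions. SLC44A4 (ENSG00000204385) encodes a choline transporter-like protein of epithelial cells that also carries a thiamine derivative, and is annotated at chromosome 6, 31863192 to 31879046, minus strand (GRCh38, as all positions here). Its level in the siCHKA samples was lowest at 272, had a median of 291 and was highest at 305 CPM, and in the siNT samples the values were 181, 191 and 208 CPM. Every siCHKA sample was above every siNT sample. The mean was 289 ± 14.7 CPM after siCHKA and 192 ± 8.44 CPM after siNT (SD, n = 6 each), a log2 fold change of 0.59 (standard error 0.05, edgeR adjusted p = 1.83e-08). An exact permutation test on log2 CPM, two-sided here and below, gave p = 0.00216, the smallest that 6 samples against 6 allow. These are bulk libraries, in which fewer cells of a type and less RNA per cell cannot be told apart.

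SLC44A1 (ENSG00000070214; chromosome 9, 105244622 to 105439171, plus strand) encodes CTL1, the widely expressed choline transporter of the plasma and mitochondrial membranes. From lowest through median to highest, its levels were 116, 124 and 129 CPM after siCHKA and 127, 138 and 153 CPM after siNT. The groups overlapped, since siNT replicates 2 and 3, at 127 CPM, were below siCHKA replicates 1 and 5, at 129 CPM. The means of 124 ± 5.55 and 137 ± 9.78 CPM (SD, n = 6 each) gave a log2 fold change of -0.15 (standard error 0.05, edgeR adjusted p = 0.0223; exact permutation p = 0.0173). Without siCHKA replicate 3 the log2 fold change was -0.13 and the adjusted p was 0.0525, and against siNT replicates 1, 2 and 3 alone it was -0.0885 with an adjusted p of 0.203, so the call rests on which libraries are used.

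SLC44A2 (ENSG00000129353; chromosome 19, 10602457 to 10644557, plus strand) encodes CTL2, a relative of CTL1 that transports choline in mitochondria. Its lowest, median and highest levels were 112, 123 and 135.3 CPM after siCHKA and 133, 142 and 151 CPM after siNT, with overlap only where siCHKA replicates 3 and 5 exceeded the lowest siNT samples. The means were 123 ± 11.3 and 141 ± 7.11 CPM (SD, n = 6 each), and the log2 fold change was -0.20 (standard error 0.06, edgeR adjusted p = 0.00937; exact permutation p = 0.0130). The siCHKA samples were themselves in separate sets: replicates 1, 3 and 5 averaged 133 CPM and replicates 2, 4 and 6 averaged 113 CPM. Against all siNT samples the first set gave a log2 fold change of -0.0788 (edgeR adjusted p = 0.244) and the other -0.33 (adjusted p = 8.77e-05). Against siNT replicates 4, 5 and 6 alone it was -0.17 (adjusted p = 0.0828).

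The shift between the transporter transcripts can be seen within each sample when levels are divided by transcript length. The SLC44A4 share of all SLC44 transcripts, in CPM per kilobase, was 55.1% to 59.7% in the siNT samples and 65.4% to 71.3% in the siCHKA samples. The sum of the SLC44 family was 127 to 134 CPM per kilobase after siNT and 161 to 165 after siCHKA, while the sum of SLC44A1 and SLC44A2 was 52.7 to 56.8 after siNT and 44.7 to 52.5 after siCHKA. SLC44A3, a family member whose substrate is less well known, made up little of the sum although it rose from 3.03 ± 0.391 to 7.78 ± 0.885 CPM (log2 fold change 1.35, standard error 0.11, edgeR adjusted p = 1.33e-08). SLC44A5 had 16 reads over the siCHKA and 6 over the siNT samples and was not tested, and the neuronal high-affinity transporter gene SLC5A7 had 0 reads in every sample.

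**Figure D2:**
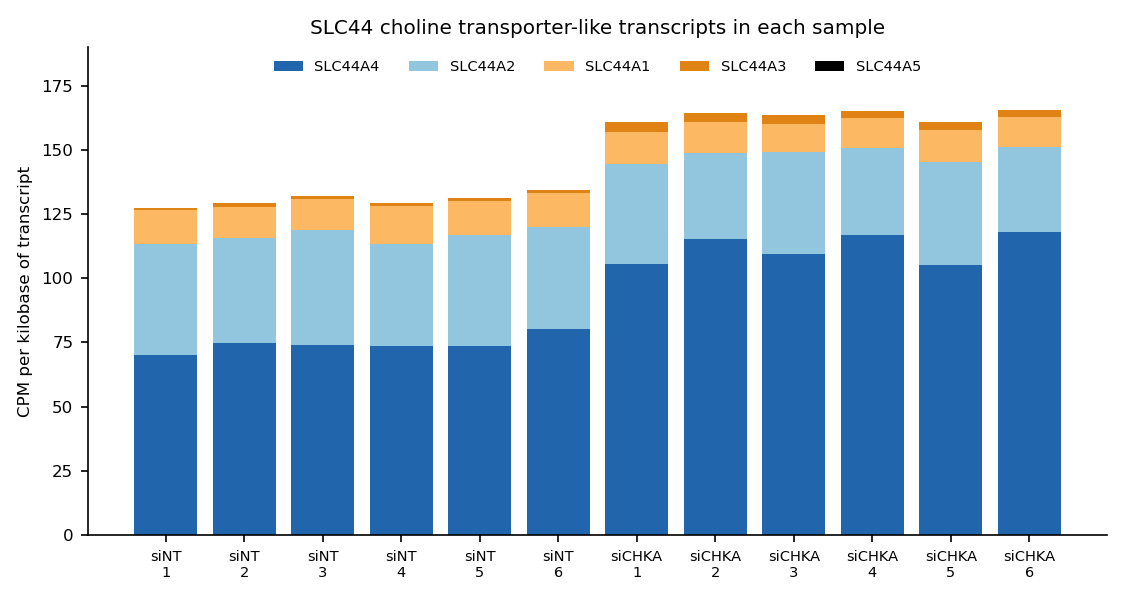
Levels of the SLC44 choline transporter-like transcripts in each of the 12 samples, stacked, in CPM per kilobase of canonical transcript. The SLC44A4 layer is larger in every siCHKA sample than in every siNT sample, the SLC44A2 and SLC44A1 layers together are smaller, and the whole stack is 161 to 165 high after siCHKA against 127 to 134 after siNT.

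On the oxidation side, CHDH (ENSG00000016391; chromosome 3, 53812335 to 53846419, minus strand), the mitochondrial choline dehydrogenase that makes betaine aldehyde, rose modestly. Levels of 23.3, 27.2 and 29.0 CPM (lowest, median, highest) were measured after siCHKA and of 20.9, 21.7 and 24.1 CPM after siNT. siCHKA replicate 1 lay below siNT replicates 2 and 5, and the other siCHKA samples lay above all siNT samples. The means of 26.8 ± 2.13 and 22.2 ± 1.34 CPM (SD, n = 6 each) gave a log2 fold change of 0.27 (standard error 0.06, edgeR adjusted p = 0.00163; exact permutation p = 0.00649). It was 0.18 with siCHKA replicates 1, 3 and 5 only (adjusted p = 0.0461) and 0.35 with replicates 2, 4 and 6 only (adjusted p = 2.73e-04). In GRCh38, 18.0% of the CHDH exon bases overlap CACNA1D on the other strand. Whether the authors counted by strand is not given in the sources used here. Where their gene models share these bases, counting without strand would have left such reads out as lying on overlapping genes. How far this touches the CHDH counts was not tested.

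ALDH7A1 (ENSG00000164904; chromosome 5, 126531200 to 126595362, minus strand), the aldehyde dehydrogenase also called antiquitin that oxidizes betaine aldehyde and a lysine breakdown product, was close to absent from the counts. It had 9 reads over the 6 siCHKA samples and 2 over the 6 siNT samples. No sample had more than 3 reads, and 5 of the 12 had 0. Both groups therefore lie at or under the floor of 3 counts, and no fold change is given. Fitted without the filter on low counts, it was not called (edgeR adjusted p = 0.191). The counts do not show whether the transcript is scarce in these cells or whether the gene model used by the authors missed its reads, and this was not tested. Of the 40-base stretches of its canonical transcript, 13.1% occur elsewhere in GRCh38, and reads with more than 1 alignment were left out by the counting.

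Of the other genes on the betaine side, 3 of 7 were tested, and 0 were lower and 2 were higher, against 30.1% and 32.1% of all tested genes. DMGDH, the mitochondrial dimethylglycine dehydrogenase, rose from 1.06 ± 0.248 to 3.94 ± 0.520 CPM (log2 fold change 1.94, standard error 0.16, edgeR adjusted p = 1.42e-08). SARDH, the sarcosine dehydrogenase that acts after it, rose from 0.415 ± 0.104 to 0.849 ± 0.188 CPM (log2 fold change 1.10, adjusted p = 7.14e-04). Both were low, and the betaine methyltransferase genes BHMT and BHMT2, which use betaine to remake methionine, had 10 and 25 reads over the siCHKA samples, 13 and 11 over the siNT samples, and were not tested.

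Both phospholipase D family members rose in every sample. PLD1 (ENSG00000075651; chromosome 3, 171600404 to 171810950, minus strand) cleaves phosphatidylcholine to phosphatidic acid and choline. The lowest, median and highest siCHKA levels were 10.5, 11.3 and 13.1 CPM, and the siNT levels were 4.64, 5.66 and 7.30 CPM. No siCHKA sample was as low as any siNT sample. The means of 11.5 ± 0.998 and 5.68 ± 0.947 CPM (SD, n = 6 each) gave a log2 fold change of 1.02 (standard error 0.10, edgeR adjusted p = 1.56e-07; exact permutation p = 0.00216), the largest of the 9 tested genes. It was 1.03 with siCHKA replicates 1, 3 and 5 only and 1.01 with replicates 2, 4 and 6 only.

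PLD3 (ENSG00000105223; chromosome 19, 40348456 to 40389472, plus strand) is a lysosomal member of the family that is better known as a nucleic acid exonuclease than as a phosphatidylcholine lipase. Its lowest, median and highest levels were 156, 166 and 179.7 CPM after siCHKA and 99.6, 111 and 118 CPM after siNT, again without overlap. The means were 167 ± 8.59 and 110.3 ± 7.11 CPM (SD, n = 6 each), and the log2 fold change was 0.60 (standard error 0.05, edgeR adjusted p = 3.91e-08; exact permutation p = 0.00216). In GRCh38, 10.6% of its exon bases overlap C19orf47 or HIPK4 on the other strand.

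PLD2, the other classical phosphatidylcholine phospholipase D, had 27.6 ± 4.12 CPM after siCHKA and 32.3 ± 2.56 CPM after siNT, with overlapping groups (log2 fold change -0.22, standard error 0.09, edgeR adjusted p = 0.0424; exact permutation p = 0.0519). siCHKA replicates 1, 3 and 5 averaged 24.1 CPM and gave -0.41 (adjusted p = 2.55e-04), and replicates 2, 4 and 6 averaged 31.2 CPM and gave -0.05 (adjusted p = 0.545), so the call rests on the former set. Per kilobase, PLD1 made up 7.76% to 10.4% of PLD1 and PLD2 together in the siNT samples and 15.8% to 23.2% in the siCHKA samples. PLD2 thus remained the more abundant transcript in every sample while the PLD1 share was higher in all 6 siCHKA samples. Of the 5 other phospholipase D genes listed, 3 were tested, with 1 lower (PLD2) and 1 higher, the mitochondrial PLD6, at 0.898 ± 0.277 against 0.540 ± 0.171 CPM (log2 fold change 0.75, adjusted p = 0.0176). PLD6 was at 0.40 with siCHKA replicates 1, 3 and 5 only (adjusted p = 0.296) and at 0.99 with replicates 2, 4 and 6 only (adjusted p = 0.00404).

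Of the 2 genes taken for forming and breaking glycerophosphocholine, PNPLA6 rose slightly and GPCPD1 fell. PNPLA6 (ENSG00000032444; chromosome 19, 7534004 to 7561764, plus strand), also called neuropathy target esterase, strips the fatty acids from phosphatidylcholine and lysophosphatidylcholine. Its lowest, median and highest levels were 79.2, 84.8 and 94.5 CPM after siCHKA and 74.6, 75.4 and 80.5 CPM after siNT. siCHKA replicates 1 and 6 fell within the siNT range, just under siNT replicate 5. The means of 86.1 ± 6.30 and 76.7 ± 2.39 CPM (SD, n = 6 each) gave a log2 fold change of 0.17 (standard error 0.05, edgeR adjusted p = 0.00970; exact permutation p = 0.00649). With siCHKA replicates 2, 4 and 6 only it was 0.11 and was not called (adjusted p = 0.0558), and with either set of 3 siNT samples the adjusted p was 0.0514 or 0.0855.

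GPCPD1 (ENSG00000125772; chromosome 20, 5544439 to 5611006, minus strand) encodes the phosphodiesterase that splits glycerophosphocholine to choline and glycerol phosphate. The siCHKA samples had a lowest level of 7.99, a median of 8.79 and a highest of 9.81 CPM, and the siNT samples 10.5, 11.3 and 11.9 CPM. Every siCHKA sample was below every siNT sample. The means of 8.82 ± 0.726 and 11.3 ± 0.504 CPM (SD, n = 6 each) gave a log2 fold change of -0.35 (standard error 0.07, edgeR adjusted p = 4.59e-04; exact permutation p = 0.00216). Of the 40-base stretches of its transcript, 8.34% occur elsewhere in GRCh38, and such reads were left out.

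Other genes of the glycerophosphodiester and lysophospholipid steps included 9 tested of 13, with 1 lower and 3 higher. GDPD5, another glycerophosphocholine phosphodiesterase, rose from 6.97 ± 0.605 to 13.1 ± 1.54 CPM (log2 fold change 0.90, standard error 0.09, edgeR adjusted p = 2.18e-07). GDPD1, a lysophospholipase D, rose from 46.6 ± 5.24 to 72.6 ± 14.8 CPM (log2 fold change 0.64, adjusted p = 1.18e-04), with 0.37 in siCHKA replicates 1, 3 and 5 and 0.87 in replicates 2, 4 and 6. PHOSPHO1, a phosphatase of phosphocholine and phosphoethanolamine, rose from 1.41 ± 0.473 to 2.94 ± 0.436 CPM (log2 fold change 1.04, adjusted p = 7.21e-05). LYPLA1, a thioesterase first described as a lysophospholipase, fell from 244 ± 33.6 to 194 ± 12.9 CPM (log2 fold change -0.33, adjusted p = 0.00174). Within each sample, the GPCPD1 share of GPCPD1, GDPD1 and GDPD5 per kilobase was 10.0% to 12.5% after siNT and 5.09% to 6.99% after siCHKA. Most of that sum was GDPD1, at a median of 14.4 CPM per kilobase after siNT and 22.7 after siCHKA. The medians were 2.08 and 1.62 for GPCPD1 and 1.98 and 3.49 for GDPD5. The share is therefore no measure of the glycerophosphocholine phosphodiesterases alone.

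SGMS2 (ENSG00000164023; chromosome 4, 107824563 to 107915047, plus strand), the sphingomyelin synthase of the plasma membrane, had the largest fall of the 9 tested genes. Its lowest, median and highest levels were 11.3, 11.9 and 15.2 CPM after siCHKA and 19.997, 22.2 and 23.7 CPM after siNT. The groups were well apart, although siCHKA replicates 1 and 3 stood above the other siCHKA samples. The means of 12.6 ± 1.59 and 21.97 ± 1.43 CPM (SD, n = 6 each) gave a log2 fold change of -0.80 (standard error 0.08, edgeR adjusted p = 2.14e-07; exact permutation p = 0.00216). It was -0.67 with siCHKA replicates 1, 3 and 5 only and -0.93 with replicates 2, 4 and 6 only. In GRCh38, 15.7% of its exon bases overlap the antisense gene CYP2U1-AS1.

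SGMS1, the Golgi sphingomyelin synthase, went the other way, from 47.7 ± 0.848 CPM after siNT to 64.2 ± 2.67 CPM after siCHKA (log2 fold change 0.43, standard error 0.04, edgeR adjusted p = 1.78e-07). Per kilobase, SGMS2 made up 20.2% to 22.9% of SGMS1 and SGMS2 together in the siNT samples and 8.94% to 12.4% in the siCHKA samples. Of the 9 other sphingomyelin genes listed, 8 were tested, with 3 lower and 1 higher (SGMS1). Of the 6 tested genes of the sphingomyelinase family, which cleaves sphingomyelin or is related to enzymes that do, 3 fell and 3 were not called (SMPD2 at a log2 fold change of 0.13, SMPD3 at 0.30 and SMPDL3A at -0.03). SMPD4 fell from 68.6 ± 4.04 to 39.4 ± 1.81 CPM (log2 fold change -0.80, standard error 0.05, adjusted p = 5.37e-10). The lysosomal SMPD1 fell from 57.9 ± 2.21 to 35.8 ± 2.82 CPM (log2 fold change -0.69, adjusted p = 1.04e-08). SMPDL3B fell from 40.1 ± 2.72 to 31.6 ± 2.50 CPM (log2 fold change -0.35, adjusted p = 1.33e-04).

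**Figure D3:**
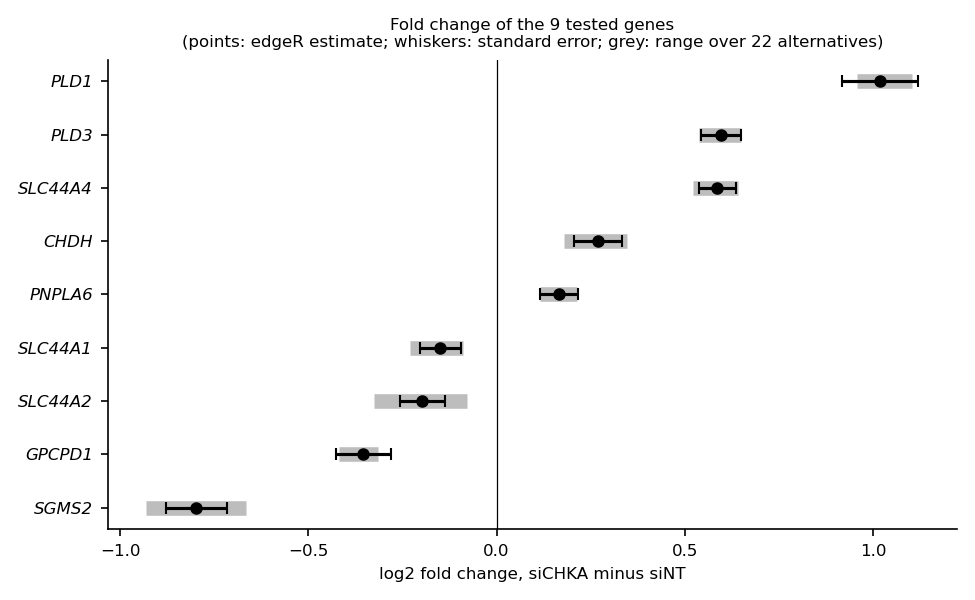
Log2 fold change (siCHKA minus siNT) of the 9 tested choline genes. Points are edgeR estimates and whiskers their standard errors. Grey bars are the range over 22 alternatives, which include other ways of processing and subsets of the samples. PLD1 is farthest to the right at 1.02 and SGMS2 farthest to the left at -0.80, and no grey bar crosses 0. The bar of SLC44A2 is wide for a small change, and its ends, -0.33 and -0.0788, are the fits with siCHKA replicates 2, 4 and 6 only and 1, 3 and 5 only.

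All 9 tested genes differed in the same direction in 6 of 6 same-numbered pairs of samples, although the numbers were not found to pair the samples. The share of all tested genes for which this held was not computed, so the count does not set these genes apart. The samples of both groups did not overlap for 5 of the 9, 2 with siCHKA below (GPCPD1 and SGMS2) and 3 with siCHKA above (SLC44A4, PLD1 and PLD3), where 21.5% and 19.1% of all tested genes were so placed and 40.6% in either direction. Replicates 1, 3 and 5 and replicates 2, 4 and 6 of siCHKA did not overlap for 3 of the 9, as for 47.5% of all tested genes. Beside SLC44A2, these were SLC44A4, with means of 276 and 302 CPM, and CHDH, with means of 25.2 and 28.4 CPM. With replicates 1, 3 and 5 only, 2 of the genes were lower and 5 higher, beside 4300 and 4408 of all 14694 genes tested then. With replicates 2, 4 and 6 only, 4 were lower and 4 higher, beside 4594 and 4718 of all 14981.

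The levels of the genes differed far more than their changes. Divided by the length of the canonical transcript, the median siNT levels in CPM per kilobase were 73.9 for SLC44A4, 51.8 for PLD3, 42.1 for SLC44A2, 17.3 for PNPLA6 and 13.2 for SLC44A1. Below these came SGMS2 at 3.55, CHDH at 2.82, GPCPD1 at 2.08 and PLD1 at 0.94. The siNT ranges of neighbours in this order did not overlap, the closest being SGMS2, at 3.20 to 3.80, and CHDH, at 2.72 to 3.14. Those ranges do not cover the choice of length. The annotated exons of PLD3 together span 13563 bases, against 2137 in its canonical transcript. The order, and the size of the shares per kilobase given above, depend on that choice, and other lengths were not tested. After siCHKA the medians were 112 for SLC44A4 and 77.8 for PLD3 but 1.91 for SGMS2, 3.54 for CHDH, 1.88 for PLD1 and 1.62 for GPCPD1. SGMS2 thus came to lie below CHDH, and PLD1, the lowest tested gene after siNT, came to lie above GPCPD1 by its median. After siCHKA the ranges of PLD1, at 1.75 to 2.18, of SGMS2, at 1.80 to 2.44, and of GPCPD1, at 1.47 to 1.81, overlapped. The order of PLD1, SGMS2 and GPCPD1 after siCHKA was therefore not resolved.

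Around these genes, 57 other genes of the same steps were listed, and 39 were tested. Of these, 9 were lower, 14 were higher and 16 were not called, with a median log2 fold change of 0.10; 30.1% of all tested genes were lower and 32.1% higher. Among the other transporters, 6 of 10 were tested, with 3 lower and 2 higher. MFSD2A, which carries lysophosphatidylcholine into cells, fell from 18.8 ± 1.16 to 9.64 ± 0.577 CPM (log2 fold change -0.96, standard error 0.07, edgeR adjusted p = 1.52e-09). FLVCR1, a heme exporter family member that also imports choline, fell from 76.3 ± 4.61 to 66.5 ± 1.24 CPM (log2 fold change -0.20, adjusted p = 0.00138). Its relative FLVCR2 rose from 4.86 ± 0.800 to 8.27 ± 0.912 CPM (log2 fold change 0.74, adjusted p = 2.43e-05), and 27.6% of its exon bases overlap FLVCR2-AS1 or TTLL5. SLC22A3, an organic cation transporter, fell from 7.80 ± 0.827 to 5.55 ± 1.41 CPM with overlapping groups (log2 fold change -0.47, adjusted p = 0.00836). It was -0.85 with siCHKA replicates 1, 3 and 5 only (adjusted p = 1.81e-05) and -0.20 with replicates 2, 4 and 6 only (adjusted p = 0.112). The siCHKA sets did not overlap for 10 of the 23 called genes, beside 47.5% of all tested genes, so this count does not set them apart.

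Of 9 phospholipase A2 genes, which release a fatty acid and a lysophospholipid, 6 were tested. Of these, 0 were lower and 5 higher, against 30.1% and 32.1% of all tested genes. PLA2G4B, 1 of the 5, averaged 0.984 CPM after siCHKA and 0.552 CPM after siNT. It was not called with siCHKA replicates 1, 3 and 5 only (edgeR adjusted p = 0.272), and 75.6% of its exon bases overlap JMJD7-PLA2G4B or SPTBN5. PLA2G2A rose from 0.649 ± 0.121 to 1.99 ± 0.682 CPM (log2 fold change 1.63, standard error 0.25, edgeR adjusted p = 2.46e-05), a low level in both groups, with 1.18 in siCHKA replicates 1, 3 and 5 and 1.94 in replicates 2, 4 and 6. PLAAT3 rose from 11.9 ± 0.598 to 17.5 ± 1.32 CPM (log2 fold change 0.55, adjusted p = 1.82e-06). PLA2G6 rose from 12.7 ± 1.72 to 19.8 ± 4.57 CPM (log2 fold change 0.64, adjusted p = 6.16e-04), with 0.33 in siCHKA replicates 1, 3 and 5 and 0.88 in replicates 2, 4 and 6. Of the 4 lysophosphatidylcholine acyltransferases, which rebuild phosphatidylcholine, all were tested, with 1 lower and 0 higher. LPCAT3 fell from 125 ± 2.61 to 95.0 ± 5.67 CPM (log2 fold change -0.40, adjusted p = 1.24e-06), and 66.0% of its exon bases overlap EMG1 on the other strand.

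**Figure D4:**
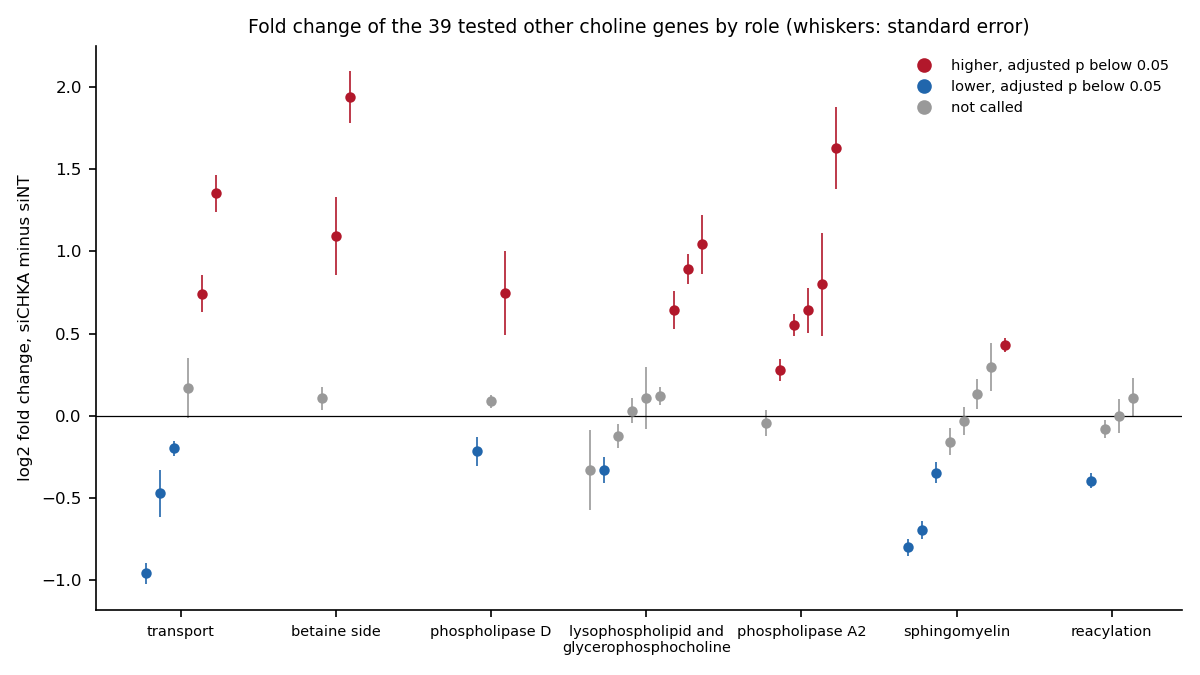
Log2 fold change (siCHKA minus siNT) of the 39 tested other choline genes, grouped by role and ordered by value within a role; points are edgeR estimates, whiskers are standard errors, red and blue mark genes higher and lower at an adjusted p-value below 0.05 and grey the genes not called. Red and blue points stand in most groups; DMGDH is the highest at 1.94 and MFSD2A the lowest at -0.96.

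The tested genes most like PLD1 over the 12 samples were ZSCAN30, ZNF585B and MAST1, by the root mean square difference of log2 CPM after centring each gene (0.114, 0.118 and 0.120). ZSCAN30 and ZNF585B encode zinc finger proteins and MAST1 a microtubule-associated kinase. ZSCAN30 ran from 8.50 to 11.97 CPM in the siNT samples and from 17.9 to 21.1 CPM in the siCHKA samples. The log2 fold changes were 0.89 for ZSCAN30, 1.12 for ZNF585B and 0.90 for MAST1, as a description of likeness that follows mainly from the difference between the groups.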

How the data were processed

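Polyadenylated RNA of 12 C4-2 samples was sequenced as single-end reads of 40 bases. Per the labels and the study's methods, the authors aligned reads to GRCh37 with TopHat 2.0.4, counted reads on Ensembl genes with HTSeq 0.5.3p9 and deposited unnormalized counts in 4 files per sample. Reads with several alignments (26.1% to 30.6% of reads), on overlapping genes (2.82% to 2.93%) or on no gene (3.95% to 5.97%) were left out by that counting. The 4 files of a sample differed by no more than sampling noise (chi-square per degree of freedom 0.983 to 1.01) and were summed. Groups and replicate numbers came from the labels.

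The 10 genes, the lists of other genes, the markers and the tests were chosen with earlier results of these data known. The test was edgeR's quasi-likelihood test (version 4.0.16 under R 4.3.3) of siCHKA against siNT on TMM-normalized counts of the genes kept by filterByExpr, with no covariate and adjusted p-values below 0.05 called. CPM are TMM-normalized, and log2 CPM used a prior count of 2. Exact permutation tests used log2 CPM. The genes named are the 10 genes, CHKA, up to 3 called genes per direction with the smallest p in each list, and the 3 genes most like the one with the largest change. Outside this rule, SLC44A5, SLC5A7, BHMT and BHMT2 were named after their values were seen, for their low counts. SMPD2, SMPD3, SMPDL3A and LPCAT2, which were not called, were also named outside it, as was PLA2G4B, which was called. Symbols, positions, transcript lengths and sequences came from GENCODE release 44 on GRCh38, which named 82.8% of the identifiers. PECAM1, an endothelial marker, had no matching identifier. The fit was tested on simulated counts. Alternatives were RLE normalization, DESeq2 1.42.0, a minimum of 10 counts in every sample, no filter, the replicate block, subsets of either group, each sample left out, 1 count file and a 2-fold minimum; the siNT subsets were chosen after seeing the data. Same-numbered samples did not deviate together (mean correlation -0.036). DESeq 1.10.1 is named in the submitters' processing notes and none of its output was used.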

Additional observations from a re-analysis of the deposited data

How the results depend on the processing

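SLC44A4, PLD1, PLD3, GPCPD1, SGMS2 and CHKA kept their direction and their call at an adjusted p below 0.05 under the 22 alternatives other than the 2-fold minimum, with log2 fold changes of 0.52 to 0.64, 0.96 to 1.10, 0.54 to 0.65, -0.42 to -0.31, -0.93 to -0.67 and -4.27 to -3.59. With siCHKA replicates 1, 3 and 5 only, 2 of the 10 genes were lower, beside 4300 of all 14694 genes tested then. SLC44A1 (-0.13) and SLC44A2 (-0.0788) were not called in that subset. With replicates 2, 4 and 6 only, PNPLA6 (0.11) was not called. With siNT replicates 1, 2 and 3 only, SLC44A1 (-0.0885) and PNPLA6 (0.16) were not called, and with siNT replicates 4, 5 and 6 only, SLC44A2 (-0.17) and PNPLA6 (0.15) were not. With 1 count file per sample, which has fewer reads, 3 of the 10 genes were higher, beside 3413 of all 11994 genes tested then. SLC44A1 (-0.12), CHDH (0.20) and PNPLA6 (0.14) were not called with that file. Without the filter on low counts, PNPLA6 (0.14) was not called. Leaving out 1 sample gave -0.18 to -0.12 for SLC44A1, which lost its call only without siCHKA replicate 3. A 2-fold minimum left 0 of the 10 genes lower and 1, PLD1, higher, 0 and 5 of the other choline genes, and 654 and 785 of all tested genes. The cause of the lost calls was not tested. No alternative reversed a direction.

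The replicate numbers did not pair the samples: same-numbered correlations ran from -0.396 to 0.3205, and 1 siCHKA and 0 siNT samples correlated best with their own number. With the number as a block, 4273 genes were lower and 4494 higher, 4 and 5 of the 10 genes, and 9 and 13 of the other choline genes.

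ALDH7A1 had at most 3 counts in every sample, too few for a fold change; whether depth, the cells or the gene model sets this was not tested.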
